A study of Mus musculus with 12 samples.

Results

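The comparison described here is the effect of MS-275 on the embryonic skull vault over both genotypes. All 12 of the 12 RNA sequencing libraries of the series entered it, 6 from embryos of MS-275-treated dams and 6 from embryos of vehicle-treated dams. The tissue was the calvaria of C57BL/6 mouse embryos at embryonic day 17.5, and the 4 groups of 3 libraries were WT vehicle, Runx2+/- vehicle, WT MS-275 and Runx2+/- MS-275. The parents, WT and Runx2+/-, were mated when 8 weeks old, and the dams received MS-275 at 10 mg/kg into the peritoneum 2 times, at 14.5 and 16.5 days post coitum, so the embryos were exposed through the mother. The labels name neither the vehicle nor the deleted part of Runx2, and they do not tie a library to an embryo or a litter. The p-values therefore measure the spread between these samples, which may in part be technical.

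MS-275 (entinostat) is a benzamide that inhibits class I histone deacetylases, the enzymes that remove acetyl groups from histone tails within the NuRD, Sin3, CoREST and NCoR corepressor complexes. The bones of the skull vault form directly from mesenchyme: progenitors in the sutures become osteoblasts, which need the transcription factor RUNX2, secrete a collagen matrix, mineralize it and in part become osteocytes. Loss of 1 copy of Runx2 delays this process in mouse and human skulls, and the design asks how the drug acts on the transcripts of such tissue.

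Counts in genes were 13307456 to 19399760 per library. Replicate 3 of Runx2+/- MS-275 stood apart from the other 5 MS-275 libraries before any test: on the first principal component, which held 72.5% of the variance, it lay at −106 among the vehicle libraries (−122 to 5.51), while the other 5 lay at 83.9 to 140.0. In the vehicle arm replicates 3 of both genotypes (5.51 and −14.5) also lay apart from the other 4 libraries (−122 to −92.7). Markers of the labelled tissue were found in every library, with Col1a1, the main collagen of bone, at 1105 CPM or more. CPM values are counts scaled to a common library size by the TMM method. Keratinocyte, neuron and lens markers were also present in vehicle libraries, and their values are given below. Xist, expressed from the inactive X chromosome, had 19585 or more counts in 5 of 6 MS-275 and 3 of 6 vehicle libraries and 60 or fewer in the other 4, so sex was not balanced between the arms. The share of uniquely aligned reads that fell in no gene was 10.5% to 16.8% in vehicle, 5.21% to 8.65% in 5 MS-275 libraries and 22.2% in replicate 3 of Runx2+/- MS-275. The arms did not pass the test for this share (MS-275 minus vehicle −5.21 percentage points, p = 0.075, n = 6 per arm, exact two-sided permutation of treatment within genotype, smallest possible p 0.005). Without that replicate the difference was −7.83 percentage points (p = 0.005, the same exact permutation with n = 5 against 6, the smallest that design can give). The library left out is the extreme one in this same share, and the arms that remain do not overlap. This p is therefore no separate support for a difference. Results below are given with all 12 libraries and, where it matters, with the 11 that remain without replicate 3 of Runx2+/- MS-275.

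**Figure D1:**
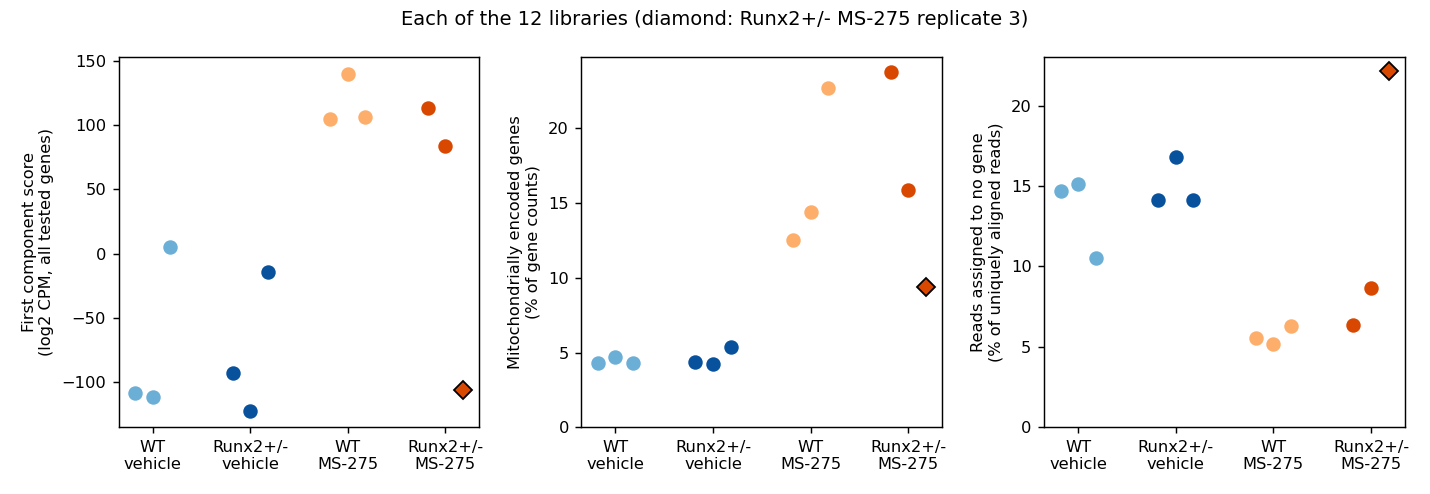
Score on the first principal component, share of gene counts from mitochondrially encoded genes in percent, and share of uniquely aligned reads assigned to no gene in percent, 1 point per library in the 4 groups. The diamond, replicate 3 of Runx2+/- MS-275, lies with vehicle on the first component (−106), between the arms for the mitochondrial share (9.37%) and above all others for reads in no gene (22.2%).

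MS-275 went with differences in a large part of the calvarial transcriptome. In the additive fit of treatment with genotype as a covariate, 3799 of 17967 genes (21.1%) rose and 2585 (14.4%) fell at an adjusted p under 0.05 by edgeR's quasi-likelihood test. Over all tested genes the median log2 fold change was −0.10. "Rose" and "fell" below refer to this fit unless the 11-library fit is named, and a fold change is always MS-275 against vehicle on the log2 scale. Without replicate 3 of Runx2+/- MS-275, 5278 of 18216 genes (29.0%) rose and 6273 (34.4%) fell, and the common coefficient of variation between libraries went from 0.463 to 0.345. Of the genes in both fits, 3798 rose in both, 2579 fell in both and 0 were called in opposite directions. Leaving out any of 9 other libraries lowered the count of genes that fell by over 1.5 times. It was 1643, 1246 and 1162 when WT MS-275 replicate 1, 2 or 3 was left out, and 1243 and 1535 without Runx2+/- MS-275 replicate 1 or 2. It was 1411 and 1419 without WT vehicle replicate 1 or 2, and 1675 and 1415 without Runx2+/- vehicle replicate 1 or 2. The count of genes that rose was 2258 without Runx2+/- MS-275 replicate 1. With Xist as a covariate 1880 genes rose and 1020 fell, and with scaling by library size alone, which lowers the median of all genes to −0.74, 851 rose and 6602 fell.

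The library left out of the 11-library fit did not enter its calls. Of 5251 genes called higher in the 11 libraries, replicate 3 of Runx2+/- MS-275 lay above all 6 vehicle libraries in 672 (12.8%), within their range in 3398 (64.7%) and below all of them in 1181 (22.5%). Of 6216 genes called lower, it lay below all vehicle libraries in 930 (15.0%) and above them in 1312 (21.1%). For most called genes this library thus lay within the range of the vehicle libraries. All 6 MS-275 libraries lay above all 6 vehicle libraries for 469 of 17967 genes (2.61%) and below them for 588 (3.27%). With the 5 other MS-275 libraries these counts were 3643 (20.3%) and 3028 (16.9%).

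Among the 12 higher genes of smallest p were genes of transport, immunity and mitochondria, and for all but 1 of them every MS-275 library, replicate 3 of Runx2+/- included, lay above every vehicle library. Slc36a2 (ENSMUSG00000020264, chromosome 11, 55158470 to 55185077 in GENCODE M21 on GRCm38, as for all positions here), a proton-coupled transporter of small amino acids, had 6.59 to 23.8 CPM (median 14.4) in vehicle. In MS-275 it had 80.7, 105 and 77.2 CPM in WT and 74.1 and 42.8 CPM in Runx2+/-, and 39.3 CPM in replicate 3 of Runx2+/-. A median is followed by its range in parentheses from here on. The log2 fold change of Slc36a2 was 2.25 (SE 0.29, edgeR adjusted p = 0.00982). That is the smallest adjusted p of the fit, and many genes share it. Lgals2, which encodes the sugar-binding galectin-2, went from 0.207 CPM (0.102 to 0.277) in vehicle to 5.40 CPM (4.71 to 6.99) in 5 MS-275 libraries. It stood at 0.392 CPM in replicate 3, above vehicle by a narrow gap, and its log2 fold change was 4.56 (SE 0.61, edgeR adjusted p = 0.00982). Mir99ahg, the host RNA of a microRNA cluster, went from 13.9 CPM (12.7 to 21.5) in vehicle to 43.0 CPM (30.5 to 62.6) in all 6 MS-275 libraries, with replicate 3 in the middle of the MS-275 range (40.3 CPM).

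Genes of complement, antigen presentation and DNA repair were also among them. Cfp, which encodes the complement factor properdin, had 10.2 to 17.8 CPM (median 13.1) in vehicle and 22.7 to 42.0 CPM (median 29.3) in MS-275. Cd1d1, which presents lipid antigens to T cells, had 14.6 to 20.3 CPM in vehicle and 29.6 to 67.3 CPM (median 49.6) in MS-275. Xrcc6, the Ku70 subunit of the DNA end-joining machinery, rose by 1.03 (SE 0.15, edgeR adjusted p = 0.00982), and Dpp7, a peptidase, by 0.79. Scaled by library size alone neither was called (0.31 and 0.11, edgeR adjusted p = 0.0670 and 0.561). Agmo, which cleaves ether lipids, rose by 1.69 and Dcaf4, an adaptor of a ubiquitin ligase, by 1.24. The remaining higher genes of smallest p were mt-Atp8 (3.08), mt-Tp (2.36) and Mlip (3.25). Mlip, which encodes a partner of lamin A in muscle, is an exception: replicate 3 held 14.8 CPM, within the vehicle range of 10.3 to 17.3 CPM, against 114 to 240.2 CPM in the other 5.

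On the lower side, Slc7a5 (ENSMUSG00000040010, chromosome 8, 121881150 to 121907694), which encodes the large neutral amino acid transporter LAT1, had 36.4 to 69.3 CPM (median 54.7) in vehicle. It had 19.9, 18.1 and 13.0 CPM in WT and 11.6 and 13.8 CPM in Runx2+/- with MS-275 and 25.2 CPM in replicate 3. The difference on the log2 scale was −1.66 (SE 0.21, edgeR adjusted p = 0.00982). Ebf3, a transcription factor of mesenchyme and neurons, fell from 69.1 CPM (57.1 to 88.6) in vehicle to 30.9 CPM (21.9 to 51.5) with MS-275, with replicate 3 the highest of the 6. Prkaca, the catalytic subunit of protein kinase A, fell from 134 CPM (101 to 149.6) in vehicle to 56.8 CPM (45.3 to 85.2) with MS-275. Here replicate 3 (52.4 CPM) lay inside the range of the other 5, as it did for Hs6st1, a heparan sulfate sulfotransferase (22.5 CPM against 15.0 to 26.6 CPM). Nck2, an adaptor of receptor tyrosine kinases (−0.81), and Spred2, an inhibitor of the RAS and ERK pathway (−0.81), fell. Gfra2, a coreceptor of the RET kinase, stood at −1.25, Astn2 at −1.28, Fam84b at −1.33, and the nuclear proteins Irf2bpl at −1.07, Zfp503 at −1.02 and Zfp553 at −0.98, all called lower. These 12 higher and 12 lower genes kept their calls in each fit that left 1 library out.

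**Figure D2:**
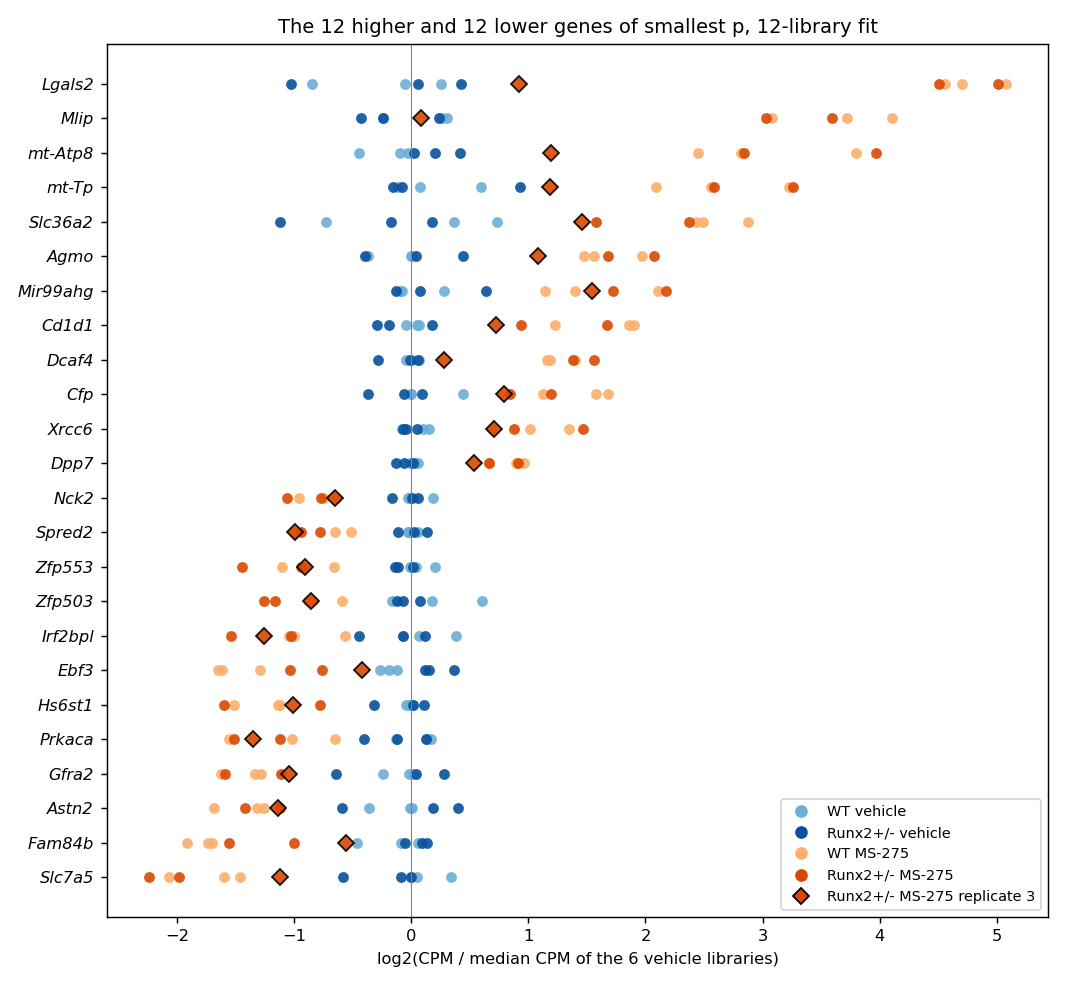
Level of the 12 higher and 12 lower genes of smallest p in each library, as log2 of the CPM over the median of the 6 vehicle libraries, with colours for the 4 groups and a diamond for replicate 3 of Runx2+/- MS-275. The arms do not overlap except for Mlip, and the diamond lies close to vehicle for Lgals2 and Dcaf4 but among the other MS-275 libraries for Mir99ahg, Prkaca and Hs6st1.

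Bone matrix genes made up 7 of the 10 genes with the largest rises in the 11-library fit, a choice made on genes of at least 10 CPM whose 5 MS-275 libraries lay above vehicle. Of the 26 bone matrix genes measured, 19 rose, 0 fell and 7 did not pass, with a median log2 fold change of 1.74 beside −0.10 for all genes. In the 11-library fit 23 rose and 1 fell (median 2.01), and in 20 of the 26 all 5 of those MS-275 libraries lay above all vehicle libraries. Of all genes 21.1% rose with 12 libraries and 29.0% with 11, and for 20.3% those 5 libraries lay above all vehicle libraries. Spp1, Ibsp, Mepe and Bglap, 4 matrix genes among the 10 with the largest folds, are shown here by the 250 bases before their RefSeq start (GRCm38.p6), because RUNX2 is known to act through the sequence ACCACA in such genes. Capitals mark that sequence, or TGTGGT, its reverse complement.
Bglap, chr3:88384467-88384716, minus strand: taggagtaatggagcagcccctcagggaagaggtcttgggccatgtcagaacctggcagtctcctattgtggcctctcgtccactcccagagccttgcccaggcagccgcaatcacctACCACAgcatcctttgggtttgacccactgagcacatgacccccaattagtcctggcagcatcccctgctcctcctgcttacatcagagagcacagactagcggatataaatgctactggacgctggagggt
Spp1, chr5:104434861-104435110, plus strand: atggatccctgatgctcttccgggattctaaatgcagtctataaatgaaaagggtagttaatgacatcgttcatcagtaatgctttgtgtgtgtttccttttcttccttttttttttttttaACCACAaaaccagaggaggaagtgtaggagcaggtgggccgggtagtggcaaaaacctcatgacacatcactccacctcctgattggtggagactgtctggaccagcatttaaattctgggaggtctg
Mepe, chr5:104325079-104325328, plus strand: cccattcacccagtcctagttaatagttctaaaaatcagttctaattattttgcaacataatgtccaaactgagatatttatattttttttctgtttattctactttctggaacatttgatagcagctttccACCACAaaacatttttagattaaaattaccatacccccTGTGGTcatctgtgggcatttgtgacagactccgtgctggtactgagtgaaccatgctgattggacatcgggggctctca
Ibsp, chr5:104299037-104299286, plus strand: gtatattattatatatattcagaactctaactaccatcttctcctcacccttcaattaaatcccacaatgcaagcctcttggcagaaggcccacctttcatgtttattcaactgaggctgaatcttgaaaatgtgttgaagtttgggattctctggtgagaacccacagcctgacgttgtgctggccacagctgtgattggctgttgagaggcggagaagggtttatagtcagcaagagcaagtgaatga
The Spp1 window is 1 of the 2 listed for that gene. The RefSeq start of Ibsp lies inside the GENCODE gene, so the last part of its window is within the GENCODE span given below. Bglap has 1 match, its first base 132 bases before the start, Spp1 has 1 at 128 bases, Mepe has matches at 118 and 80 bases, and Ibsp has none in this window. The 6-base sequence is on either strand of 14.0% of the 32851 windows of this length, and of 27025 gene symbols 15.9% do. Among the 20 bone matrix genes with a window 5 do, and among 8 of the 10 genes of largest rise 3 do. The GC box GGGCGG, a site of the SP factors, searched on both strands as GGGCGG or CCGCCC, is in 7 of the 20 and in 35.4% of all symbols. These matches describe the letters and no binding was measured.

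Spp1 (ENSMUSG00000029304, chromosome 5, 104435118 to 104441050) encodes osteopontin, an acidic phosphoprotein of bone. It had 186 to 716 CPM (median 448) in vehicle and 8799, 14808 and 18153 CPM in WT and 19019.8 and 8677 CPM in Runx2+/- with MS-275, but 134 CPM in replicate 3 of Runx2+/-. The 5 other MS-275 libraries were thus far above vehicle and replicate 3 below all vehicle libraries. The log2 fold change was 4.67 (SE 0.89, edgeR adjusted p = 0.00982) with 12 libraries and 4.96 (SE 0.46, edgeR adjusted p = 2.73e-05) with 11. Ibsp (ENSMUSG00000029306, chromosome 5, 104299171 to 104311469), bone sialoprotein, went from 627 CPM (328 to 1212) in vehicle to 11018, 15365 and 16858 CPM in WT and 17975 and 8952 CPM in Runx2+/-, with 375 CPM in replicate 3. Bglap (ENSMUSG00000074483, chromosome 3, 88383501 to 88384464), osteocalcin, a late osteoblast product, went from 5.15 CPM (2.88 to 8.61) in vehicle to 147, 178 and 188 CPM in WT and 202 and 79.3 CPM in Runx2+/-, with 2.09 CPM in replicate 3. Its neighbour and near copy Bglap2 rose by 4.80 (SE 0.80, edgeR adjusted p = 0.00982), and reads of such copies can be split by the counting.

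Mepe (ENSMUSG00000053863, chromosome 5, 104325329 to 104338611), a phosphoglycoprotein of osteocytes, had 0.388 to 1.38 CPM (median 0.518) in vehicle and 4.49, 7.53 and 10.5 CPM in WT and 48.1 and 11.9 CPM in Runx2+/- with MS-275, with 0.131 CPM in replicate 3. Its fold change was 4.06 (SE 0.98, edgeR adjusted p = 0.0128), and Runx2+/- replicate 1 was the highest. With limma-voom in place of edgeR it was 2.76 and not called (limma adjusted p = 0.147). Omd, osteomodulin, rose by 4.17 and Ifitm5, a membrane protein of osteoblasts, by 3.97. Dmp1, a mineralization factor of osteocytes, rose by 2.55, Mgp, an inhibitor of calcification, by 2.88, and Cthrc1 by 2.64. Sparc, osteonectin, rose by 1.68, Serpinh1, the collagen chaperone, by 1.82 and Col1a2 by 1.57. Col1a1 did not pass with 12 libraries (0.99, SE 0.59, edgeR adjusted p = 0.186), where replicate 3 held 1105 CPM against 3011 to 9956 CPM in vehicle, and rose in the 11 (1.28, SE 0.41, edgeR adjusted p = 0.0186). Bglap3, the third osteocalcin copy, had −1.18 without a call and fell in the 11-library fit. Outside the list, the largest rises in the 11 libraries included Timp1, an inhibitor of matrix proteases (4.24), and Lipc, hepatic lipase (4.53). Of the 12 fits that each left 1 library out, the number that kept the call was 2 for Col1a2, 4 for Sparc.

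**Figure D3:**
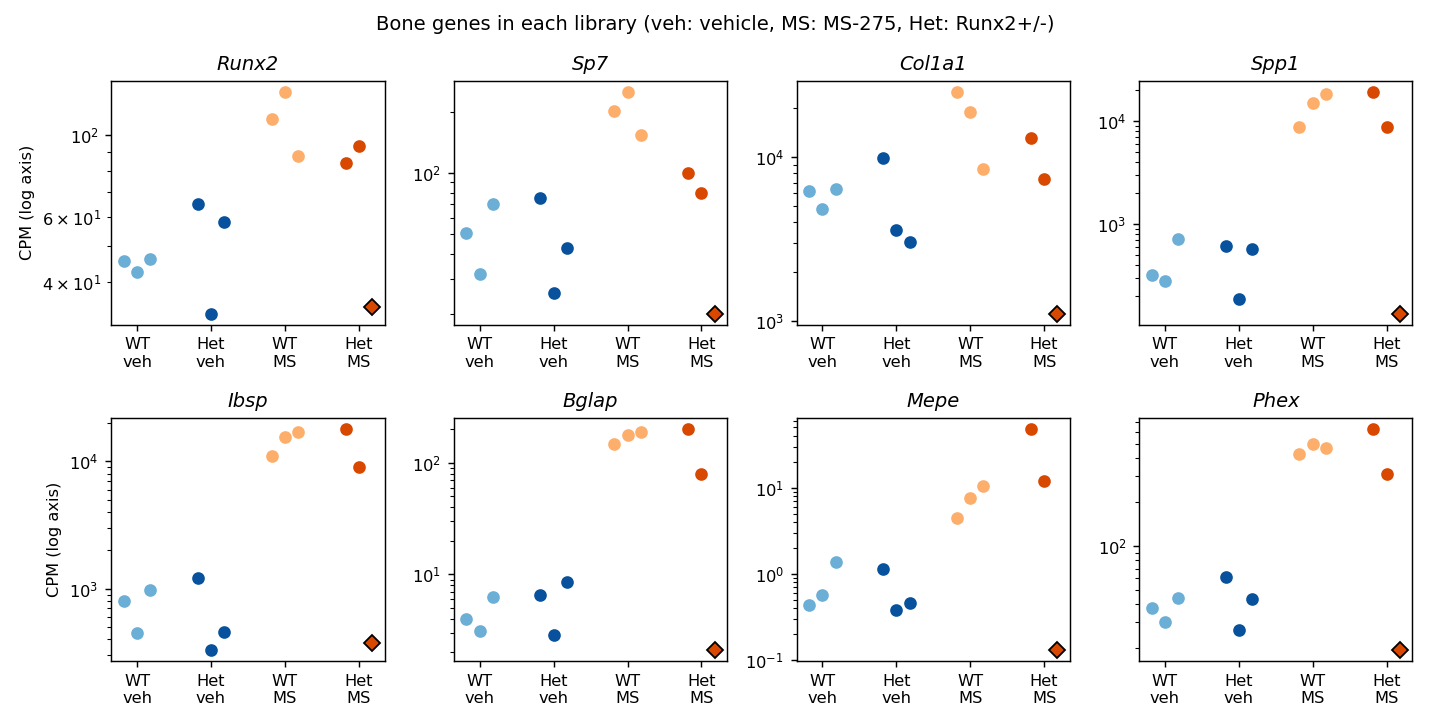
CPM on a log axis of 8 bone genes in each of the 12 libraries, 1 point per library, by group. Spp1, Ibsp, Bglap and Phex are far above vehicle in 5 MS-275 libraries, Runx2 and Sp7 by less, and in all 8 the diamond, replicate 3 of Runx2+/- MS-275, lies near or below the vehicle libraries.

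Among osteoblast transcription factors, Runx2 (ENSMUSG00000039153, chromosome 17, 44495987 to 44814797) had 32.8 to 65.3 CPM (median 45.8) in vehicle and 111, 131 and 88.2 CPM in WT and 84.1 and 93.5 CPM in Runx2+/- with MS-275, and 34.1 CPM in replicate 3. The 5 lay above every vehicle library and replicate 3 near the lowest. Its fold change was 0.87 (SE 0.28, edgeR adjusted p = 0.0329), and 1.07 (SE 0.19, edgeR adjusted p = 8.44e-04) in the 11. The 12-library call of Runx2 was lost without a filter on low counts (0.79, edgeR adjusted p = 0.0547), with Xist as a covariate (0.94, edgeR adjusted p = 0.0588) and under scaling by library size alone (0.14, edgeR adjusted p = 0.610). Sp7, osterix, did not pass with 12 libraries (1.24, SE 0.46, edgeR adjusted p = 0.0520) and rose in the 11 (1.53, SE 0.33, edgeR adjusted p = 0.00268). Of the 21 osteoblast transcription factors measured, 5 rose, 0 fell and 16 did not pass, against 9 higher and 0 lower in the 11 libraries. The 12-library calls were Runx2, Cbfb, the partner of RUNX2 (0.71), Dlx6 (0.86), Mef2c (0.72) and Vdr, the vitamin D receptor (1.38). Dlx5 did not pass (0.11). With 12 libraries the share of the list that rose is near the 21.1% of all genes, and with 11 it is above 29.0%. The list's median was 0.51, and −0.24 when libraries were scaled by library size alone. Calls were kept in fewer than 12 of those fits for some genes: 2 for Vdr, 3 for Runx2, 4 for Cbfb.

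Of the 20 mineralization and early osteocyte genes measured, 11 rose, 0 fell and 9 did not pass, against 17 higher and 1 lower in the 11 libraries (12-library median 1.02). Both shares that rose are above those of all genes (21.1% and 29.0%). Phex, the endopeptidase mutated in X-linked hypophosphataemia, went from 40.5 CPM (26.8 to 61.4) in vehicle to 425, 500.0 and 463 CPM in WT and 630.1 and 309.9 CPM in Runx2+/-, with 19.4 CPM in replicate 3. Enpp1, which makes pyrophosphate, rose by 2.17, Ank, which exports it, by 0.81, and Phospho1, a phosphatase of matrix vesicles, by 1.26. The WNT inhibitors Sost (1.76) and Dkk1 (2.00), both osteocyte products, rose. Tnfrsf11b, the decoy receptor osteoprotegerin, rose by 2.24, and its ligand RANKL, Tnfsf11, by 1.57. Alpl, the tissue-nonspecific phosphatase, passed only in the 11-library fit (1.52, SE 0.32, edgeR adjusted p = 0.00232; 1.23 with 12). The number of those 12 fits that kept the call was 1 for Phospho1, 2 for Ank and Tnfsf11, 3 for Sost.

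Of the 19 osteoclast genes measured, 3 rose, 1 fell and 15 did not pass, against 8 higher and 2 lower in the 11 libraries. The share that rose lies below the 21.1% of all genes with 12 libraries and above the 29.0% with 11. Only in 1 of the 19 did the 5 other MS-275 libraries lie above all vehicle libraries, beside 20.3% of all genes. Ctsk, cathepsin K, rose from 121 CPM (50.4 to 244) in vehicle to 1095, 1512 and 1650.3 CPM in WT and 773 and 391 CPM in Runx2+/-, with 47.4 CPM in replicate 3 (2.38, SE 0.65, edgeR adjusted p = 0.0191). Mmp9 (0.50) and Nfatc1, the regulator of osteoclast formation (0.09), did not pass, and Src fell (−0.64). Of the 19 chondrocyte genes measured, 7 rose, 0 fell and 12 did not pass, against 11 higher and 0 lower in the 11 libraries. In both fits a larger share of the chondrocyte list rose than of all genes (21.1% and 29.0%). Those that rose included Snorc, a cartilage proteoglycan, from 1.16 CPM (0.646 to 1.48) in vehicle to 16.7 CPM (11.1 to 31.4) in the 5 MS-275 libraries, Hapln1 (2.64), Matn1 (2.62) and Ucma (2.78). The cartilage regulator Sox9 (−0.22) and the main cartilage collagen gene Col2a1 (0.25) did not pass in either fit. Of the 22 suture and craniofacial patterning genes measured, 3 rose, 4 fell and 15 did not pass, against 10 higher and 5 lower in the 11 libraries. As for the osteoclast list, the share that rose lies below that of all genes with 12 libraries and above it with 11. With all 12 the aristaless factors Alx1 (1.86) and Alx4 (1.05) and Prrx2 (1.34) rose. Tfap2a (−2.66), Tfap2b (−1.72), both also active in skin, Twist2 (−1.38) and Axin2 (−0.81) fell. Scaling by library size alone turned the medians of the osteoclast list (from 0.51 to −0.20) and of the suture list (from 0.52 to −0.21). Among these genes the calls held in fewer of the 12 fits: 2 for Tfap2a, 3 for Twist2, 4 for Src, 5 for Axin2, 6 for Prrx2, 9 for Alx4 and Tfap2b, 11 for Ctsk.

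Genes of the drug's own targets and their complexes were called in both directions. Of the 27 class I deacetylase and corepressor genes measured, 6 rose, 8 fell and 13 did not pass, against 8 higher and 13 lower in the 11 libraries (12-library median −0.11, beside −0.10 for all genes). The share that rose is near that of all genes in both fits (21.1% and 29.0%). The share that fell is above that of all genes in both (14.4% and 34.4%). Hdac1 went from 75.5 CPM (62.8 to 94.0) in vehicle to 126, 149 and 167 CPM in WT and 187 and 130.4 CPM in Runx2+/-, with 75.6 CPM in replicate 3 (0.84, SE 0.20, edgeR adjusted p = 0.0132). Hdac8 (0.76) and Hdac2 (0.57) also rose, as did the histone-binding subunit Rbbp7 (0.86) and the scaffold Sin3b (0.66), while Hdac3 did not pass (0.12). Under scaling by library size alone Hdac2 and Sin3b stood below 0 (−0.16 and −0.06). Rcor1, the scaffold of CoREST, fell from 75.5 CPM (70.4 to 84.6) in vehicle to 47.0 CPM (38.4 to 52.4) with MS-275, with all 6 below all 6, and in the same way the NuRD subunits Mta1 (−0.55) and Chd4 (−0.50). Mbd3 (−0.61) fell with overlapping arms. Among 7 class II and IV deacetylases Hdac4 (−0.78) and Hdac11 (−0.59) fell, 0 rose and 5 did not pass, and 5 fell in the 11 libraries. Beside them, 14.4% of all genes fell with 12 libraries and 34.4% with 11. Calls were kept in fewer than 12 of those fits for some genes: 3 for Rbbp7, 5 for Hdac2, 7 for Chd4 and Hdac11.

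Among histone acetyltransferases and readers of acetylation more genes fell than rose. Of the 14 acetyltransferase and BET genes measured, 3 rose, 8 fell and 3 did not pass, against 3 higher and 10 lower in the 11 libraries (12-library median −0.45). A larger share of the list fell than of all genes in both fits (14.4% and 34.4%). Its share that rose is near the 21.1% of all genes with 12 libraries and below the 29.0% with 11. Brd2 and Brd3, BET proteins that read acetylated histones, fell with no overlap between the arms. Brd3 went from 114 CPM (97.5 to 118) in vehicle to 62.6 CPM (54.9 to 90.9) with MS-275 (−0.74, SE 0.14, edgeR adjusted p = 0.00982), and Brd2 had −0.54. The acetyltransferases Ep300 (−0.57), Kat2a (−0.63), Kat6a (−0.62) and Kat7 (−0.38) fell, and Crebbp did not pass (−0.32). Hat1, which acetylates newly made histones, rose (1.40, SE 0.29, edgeR adjusted p = 0.00992). The number of those 12 fits that kept the call was 10 for Kat7.

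Of the 30 genes listed as responders to deacetylase inhibitors measured, 5 rose, 2 fell and 23 did not pass, against 12 higher and 5 lower in the 11 libraries. The share that rose was thus below that of all genes with 12 libraries (21.1%) and above it with 11 (29.0%). The 12-library median was 0.17 and became −0.52 under scaling by library size alone. Cdkn1a, the cell cycle inhibitor p21, had 40.4 to 83.7 CPM (median 63.2) in vehicle and 98.2, 83.6 and 62.7 CPM in WT and 67.4 and 57.4 CPM in Runx2+/- with MS-275, with 43.2 CPM in replicate 3, arms that overlap, and did not pass in either fit (0.11, SE 0.20, edgeR adjusted p = 0.672 with 12 libraries). H1f0, the replacement linker histone, had 210.4 to 381 CPM in vehicle and 359.9 to 487 CPM in 5 MS-275 libraries and passed only in the 11 (0.61, SE 0.17, edgeR adjusted p = 0.0102). Hist1h1c (1.42) and Hist1h2bc (1.10), whose reads can be shared with other histone genes, Cd9 (1.59) and Sat1, which degrades polyamines (1.09), rose. Gsn, gelsolin, did not pass with 12 libraries (0.81, SE 0.31, edgeR adjusted p = 0.0620) and rose in the 11 (1.02, SE 0.20, edgeR adjusted p = 0.00168). Among these genes the calls held in fewer of the 12 fits: 11 for Hist1h2bc.

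Several feedback inhibitors of FGF and ERK signalling fell with MS-275. In this pathway FGF ligands act on receptor kinases, and ERK activity induces its own inhibitors of the Sprouty, Spred and dual-specificity phosphatase families. Of the 19 FGF pathway and ERK feedback genes measured, 1 rose, 9 fell and 9 did not pass, against 3 higher and 9 lower in the 11 libraries, with a 12-library median of −0.54. In both fits the share of this list that fell is above that of all genes (14.4% and 34.4%). The ligand Fgf18 did not pass (−0.54) and Fgf10 fell (−1.48). The receptor Fgfr3 rose (0.48, −0.19 under scaling by library size alone), and Fgfr1 (−0.02) and Fgfr2 (0.44) did not pass. The inhibitors Spry1 (−1.22), Spry2 (−1.29), Spry4 and Spred2 and the ETS factor Etv5 (−0.64) fell with all 6 MS-275 libraries below all 6 vehicle libraries. Spry4 had 14.0 to 24.5 CPM (median 16.8) in vehicle, 10.7, 9.58 and 8.80 CPM in WT and 11.2 and 10.5 CPM in Runx2+/- with MS-275 and 9.53 CPM in replicate 3 (−0.83, SE 0.15, edgeR adjusted p = 0.00982). Dusp4 (−1.88) and Etv4 (−1.52) fell, whereas Dusp6, the ERK phosphatase most used as a readout, did not pass (−0.06). Calls were kept in fewer than 12 of those fits for some genes: 2 for Fgfr3, 4 for Dusp4.

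Of hedgehog genes the receptor Ptch1, itself a target of the pathway, fell from 40.3 CPM (37.2 to 49.5) in vehicle to 24.7 CPM (19.0 to 28.7) with MS-275, and its target Gli1 did not pass (−0.22). Of the 13 hedgehog pathway genes measured, 0 rose, 3 fell and 10 did not pass, against 1 higher and 4 lower in the 11 libraries, with a 12-library median of −0.21, or 0.02 without the 4 libraries numbered 3. The hedgehog share that fell is above the 14.4% of all genes with 12 libraries and near the 34.4% with 11. In the WNT pathway, of the 33 WNT pathway genes measured, 5 rose, 8 fell and 20 did not pass, against 10 higher and 10 lower in the 11 libraries. With 12 libraries the share of this list that rose is below the 21.1% of all genes and the share that fell above the 14.4%. With 11 both shares are near those of all genes (29.0% and 34.4%). The targets Axin2 (−0.81), Lef1 (−1.22), Rnf43 (−1.58) and Apcdd1 fell, Apcdd1 from 53.9 CPM (45.6 to 82.2) in vehicle to 19.6 CPM (9.19 to 31.0) with MS-275. The secreted inhibitors Wif1 (2.43, SE 0.47, edgeR adjusted p = 0.00982), Dkk2 (1.24), Dkk1 and Sost rose, while Sfrp1 (0.08), Sfrp2 (−0.07) and Frzb (0.61) did not pass and the DKK receptor Kremen1 fell (−0.66). Ctnnb1, beta-catenin, rose by 1.07, and the coreceptor Lrp5 did not pass (0.16). The number of those 12 fits that kept the call was 7 for Kremen1, 10 for Dkk2.

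In the BMP and TGF-beta pathway, of the 35 genes of that list measured, 8 rose, 4 fell and 23 did not pass, against 15 higher and 5 lower in the 11 libraries. The share that rose is near the 21.1% of all genes with 12 libraries and above the 29.0% with 11. The share that fell is below that of all genes in both fits (14.4% and 34.4%). The ligands Bmp3 (1.85), Bmp5 (1.54) and Bmp4 (1.05) rose, Gdf6, a suture and joint ligand, fell (−1.95), and Bmp2 did not pass (0.55). The receptor Bmpr1a rose (1.06) and Bmpr1b fell (−1.23). The pseudoreceptor Bambi went from 23.3 CPM (14.0 to 29.5) in vehicle to 210.3, 273 and 398 CPM in WT and 294 and 179 CPM in Runx2+/-, with 16.6 CPM in replicate 3 (3.27, SE 0.56, edgeR adjusted p = 0.00982). The target Id1 rose by 1.28. Scaling by library size alone turned the medians of the WNT (0.08 to −0.61) and the BMP and TGF-beta list (0.31 to −0.39). Of the 15 Notch pathway genes measured, 0 rose, 3 fell and 12 did not pass, against 2 higher and 6 lower in the 11 libraries. The Notch share that fell is a little above that of all genes in both fits (14.4% and 34.4%). With all 12, Notch1 (−1.20), the ligand Jag2 (−1.47) and the target Nrarp (−0.64, no overlap) fell. Of the 13 genes of the insulin-like growth factor system measured, 2 rose, 2 fell and 9 did not pass, against 5 higher and 2 lower in the 11 libraries. With 12 libraries the share that rose is below the 21.1% of all genes and the share that fell near the 14.4%. Igf1 (1.27) and Igfbp7 (1.12) rose, and the receptor Igf1r (−0.69) and the adaptor Irs2 (−1.10) fell. This list's median of 0.18 became −0.51 under scaling by library size alone. Among these genes the calls held in fewer of the 12 fits: 2 for Bmp4, 3 for Bmp5 and Jag2, 6 for Id1 and Igf1r.

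Mitochondrially encoded genes differed between the arms in every library. They are the part of the respiratory chain that the mitochondrial genome encodes. Their share of gene counts was 4.25% to 5.39% in vehicle (4.55% ± 0.441, SD, n = 6). With MS-275 it was 12.5%, 14.4% and 22.7% in WT and 23.8%, 15.9% and 9.37% in Runx2+/-, the last in replicate 3 (16.4% ± 5.70, SD, n = 6). The arms did not overlap, and the difference of 11.9 percentage points had p = 0.005, the smallest that the exact two-sided permutation of treatment within genotype can give. It was 13.3 percentage points without replicate 3 of Runx2+/- MS-275. The 12 measured of the 13 mitochondrially encoded protein genes on the list all rose with the arms apart, from 2.22 for mt-Nd3 to 3.08 for mt-Atp8, and mt-Co1 of complex IV went from 9322 CPM (8456 to 11232) in vehicle to 55862 CPM (18163 to 102103) with MS-275. Reads of mt-Atp8 and mt-Atp6, which overlap, and of mt-Nd6, on the opposite strand to its neighbours, can be misassigned.

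Most listed nuclear genes of the respiratory chain and of the cytosolic ribosome also rose. Of the 30 nuclear respiratory chain genes measured, 21 rose, 1 fell and 8 did not pass, against 27 higher and 1 lower in the 11 libraries (12-library median 0.91). Uqcrc2 of complex III went from 129 CPM (118 to 170.2) in vehicle to 377 CPM (179 to 564) with MS-275 and all 6 apart. Its partner Uqcrc1 fell (−0.50), and Atp5b passed only in the 11 (0.42). Of the 30 cytosolic ribosomal protein genes measured, 26 rose, 0 fell and 4 did not pass, against 29 higher and 0 lower in the 11 libraries (12-library median 1.53). For this list and the respiratory chain list the shares that rose are above those of all genes (21.1% and 29.0%). Rpl23 went from 594 CPM (479 to 1122) in vehicle to 2523, 3745 and 5815 CPM in WT and 4482 and 2770.1 CPM in Runx2+/- and 633 CPM in replicate 3. In vehicle the summed level of these 30 genes was 11606 to 33175 CPM, the highest in the vehicle replicates 3, and in 5 MS-275 libraries 48100.4 to 90019 CPM. Ribosomal protein genes are short and have many pseudogenes. Gene length moved with the result: among protein-coding genes 29.5% of the shortest 25% by exon length rose and 9.63% fell, against 16.0% and 21.3% of the longest 25%, with median log2 fold changes of 0.15 and −0.21. Its part in these lists, and that of the lower share of reads in no gene, was not tested. Calls were kept in fewer than 12 of those fits for some genes: 7 for Uqcrc1.

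Of the 34 DNA replication and mitosis genes measured, 17 rose, 1 fell and 16 did not pass, against 23 higher and 1 lower in the 11 libraries (12-library median 0.45, or −0.26 under scaling by library size alone). Compared with all genes (21.1% and 29.0%), a larger share rose in both fits. Top2a, the topoisomerase of dividing cells, went from 226 CPM (204 to 264) in vehicle to 461 CPM (289 to 644) with MS-275 with the arms apart (0.96, SE 0.20, edgeR adjusted p = 0.00992), and Kif20a, a mitotic kinesin, rose by 1.22. Pcna, the replication clamp, rose by 1.31, Cdk1 by 1.26 and Mki67 by 0.44 (−0.27 under scaling by library size alone), while Ccnd1 (−0.19), Plk1 (−0.25) and 5 of the 6 Mcm genes did not pass and Aurkb fell (−0.48). Of the 22 p53 target and apoptosis genes measured, 5 rose, 6 fell and 11 did not pass, against 8 higher and 6 lower in the 11 libraries. The share that rose is near the 21.1% of all genes with 12 libraries and above the 29.0% with 11. The share that fell is above the 14.4% of all genes with 12 and below the 34.4% with 11. With all 12, the death receptor Fas (1.46), Casp8 (1.49) and Ccng1 (1.30) rose, the survival genes Bcl2 (−0.66) and Bcl2l1 (−0.65) fell, and Mdm2 (0.02) and Bax (0.39) did not pass. Of the 18 integrated stress response genes measured, 7 rose, 1 fell and 10 did not pass, against 11 higher and 1 lower in the 11 libraries. In both fits the share of this list that rose is above that of all genes (21.1% and 29.0%). Asns, asparagine synthetase, went from 31.8 CPM (23.6 to 36.9) in vehicle to 106 CPM (37.8 to 174) with MS-275, and Psat1 (1.21) and the chaperone Hspa5 (1.43) also rose, while Atf4 (0.28) and Ddit3 (0.07) did not pass. Of the 20 immediate early and heat shock genes measured, 0 rose, 7 fell and 13 did not pass, against 1 higher and 8 lower in the 11 libraries. With 12 libraries a larger share of this list fell than of all genes (14.4%), and with 11 a share near theirs (34.4%). The inducible heat shock genes Hspa1a (−1.07) and Hspa1b (−1.74) fell, the arms apart, and Fos (−0.13) and Egr1 (0.19) did not pass. The number of those 12 fits that kept the call was 2 for Mki67, 4 for Aurkb.

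Of the 23 cholesterol synthesis and uptake genes measured, 1 rose, 10 fell and 12 did not pass, against 2 higher and 13 lower in the 11 libraries (12-library median −0.60). Compared with all genes (14.4% and 34.4%), a larger share fell in both fits. Srebf2, the transcription factor of the pathway, fell (−1.41). Mvk, mevalonate kinase, fell from 17.9 CPM (16.1 to 28.2) in vehicle to 13.1 CPM (9.75 to 16.0) with MS-275, the arms apart (−0.60, SE 0.17, edgeR adjusted p = 0.0231). The entry enzyme Hmgcs1 fell (−0.92) and Ebp rose (1.74). Of the 21 hypoxia and glycolysis genes measured, 6 rose, 2 fell and 13 did not pass, against 9 higher and 5 lower in the 11 libraries. In both fits a larger share of this list rose than of all genes (21.1% and 29.0%) and a smaller share fell (14.4% and 34.4%). With all 12, Ldha (0.91) and Eno1 (0.81, the arms apart) rose, and the glucose transporter Slc2a1 fell (−0.93). Among these genes the calls held in fewer of the 12 fits: 3 for Hmgcs1, 4 for Slc2a1, 9 for Mvk.

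Genes of cell types other than bone moved widely between the arms. In bulk tissue fewer cells of a type and less RNA per cell cannot be told apart. Most listed epidermal genes were far lower in 5 MS-275 libraries than in vehicle, and not in replicate 3 of Runx2+/-. Of the 29 epidermis genes measured, 0 rose, 11 fell and 18 did not pass, but in the 11 libraries 28 fell and 0 rose, with medians of −3.63 and −6.51 (−6.42 with 1 gene that had no count set at its bound). Among all genes 14.4% fell with 12 libraries and 34.4% with 11. The summed level of the list was 2069.6 to 5737 CPM in vehicle, 87.5 to 189 CPM in the 5 and 2869 CPM in replicate 3. Krt5, the keratin of basal skin cells, had 138 to 436 CPM (median 290.2) in vehicle and 0.521, 2.21 and 0.259 CPM in WT and 0.186 and 0.239 CPM in Runx2+/- with MS-275, and 270.3 CPM in replicate 3. Its fold change did not pass with 12 libraries (−4.60, SE 2.21, edgeR adjusted p = 0.113) and did with 11 (−8.85, SE 0.62, edgeR adjusted p = 9.00e-06). Lor, loricrin of the cornified layer, was the 1 gene of the list with all 6 below all 6 (35.2 to 137 CPM (median 86.2) against 0.239 to 33.6 CPM (median 0.653), fold change −4.66 (SE 1.24, edgeR adjusted p = 0.0175)).

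The 10 genes of largest fall in the 11 libraries were 9 genes of skin and Ahsg, fetuin-A, a serum glycoprotein made in liver that is stored in bone. Where no read was counted, up to 3 counts per library remain possible, a mean floor of 0.244 CPM over the 5 MS-275 libraries, and this floor covers counting error only, as do the intervals that follow, since reads are not independent molecules. Against it Casp14, a caspase of cornifying cells, was at least 71.5-fold lower, Ahsg at least 73.1-fold and Lce1c, of the cornified envelope, at least 46.6-fold, with no count in the 5 libraries and 651, 121 and 188 counts in replicate 3. Hrnr, hornerin, had 28 counts in the 5 libraries and 14002 in replicate 3, and was 1234-fold lower in the 5 than in vehicle (95% exact Poisson interval 854 to 1858). Lce1m, Csta1, Klk7, Them5, Kprp and Il1f5 had 1 count each in the 5 libraries and 404 to 760 in replicate 3. For Klk7, a protease of skin shedding, the ratio was 1844 (interval 331 to 72849).

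Brain and eye genes varied among the vehicle libraries as well. Of the 25 neuron genes measured, 0 rose, 4 fell and 21 did not pass, and in the 11 libraries 23 fell (medians −2.21 and −3.35). The share that fell is near the 14.4% of all genes with 12 libraries and above the 34.4% with 11. In 3 of the 25 the 5 other MS-275 libraries lay below all vehicle libraries, beside 16.9% of all genes. Tubb3, a tubulin of neurons, had 361, 491 and 14.3 CPM in the WT vehicle group, and 209, 438 and 54.0 CPM with vehicle in Runx2+/-, so that replicates 3 were the low ones. With MS-275 it had 11.7, 4.42 and 71.0 CPM in WT and 22.4 and 9.97 CPM in Runx2+/-, and 303 CPM in replicate 3. Of the 22 lens and eye genes measured, 0 rose, 2 fell and 20 did not pass, and 19 fell in the 11 (median −6.35, or −6.02 with 1 gene at its bound). In 4 of the 22 the 5 other MS-275 libraries lay below all vehicle libraries, near the 16.9% of all genes. Cryaa, a crystallin of the lens, had 509, 476 and 5.39 CPM in the WT vehicle group, and 369.7, 438 and 5.09 CPM with vehicle in Runx2+/-, 0.0798 to 0.982 CPM in 5 MS-275 libraries and 327 CPM in replicate 3. Of the 25 neuronal target genes of REST and CoREST measured, 0 rose, 8 fell and 17 did not pass. CoREST and its deacetylases repress these targets outside neurons. In the 11 libraries 20 of them fell, a share above the 34.4% of all genes. Only in 3 did the 5 MS-275 libraries lie below all vehicle libraries, as in 16.9% of all genes. The summed level of the list was 249 to 2530 CPM in vehicle and 134 to 472 CPM in the 5, which overlap. In replicate 3 of Runx2+/- MS-275 it was 1544 CPM. Rest itself did not pass (−0.10).

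Of the 19 glia and Schwann cell genes measured, 3 rose, 8 fell and 8 did not pass, against 3 higher and 10 lower in the 11 libraries. In both fits a larger share of the list fell than of all genes (14.4% and 34.4%) and a smaller share rose (21.1% and 29.0%). Sox10, the factor of neural crest glia and melanocytes (−2.07, SE 0.57, edgeR adjusted p = 0.0194), the myelin gene Mbp (−1.59), Erbb3 (−2.42) and Foxd3 (−1.69) fell with the arms apart. Sox10 had 13.4 to 25.2 CPM (median 16.6) in vehicle, 2.93, 0.491 and 4.23 CPM in WT and 1.39 and 11.6 CPM in Runx2+/- with MS-275 and 7.88 CPM in replicate 3. Pmp22 (1.59), also active in mesenchyme, rose. Of the 11 melanocyte and pigment epithelium genes measured, 0 rose, 5 fell and 6 did not pass, against 0 higher and 8 lower in the 11 libraries. Both of these shares that fell are above those of all genes (14.4% and 34.4%). Dct (−3.16), Pmel (−2.55) and Kit (−0.85, the arms apart) fell. Of the 23 skeletal muscle genes measured, 0 rose, 6 fell and 17 did not pass, against 0 higher and 9 lower in the 11 libraries. The share that fell is above the 14.4% of all genes with 12 libraries and near the 34.4% with 11. With all 12, Myod1, which specifies muscle, fell from 7.34 CPM (3.97 to 14.3) in vehicle to 2.01 CPM (0.345 to 3.26) with MS-275, Acta1 fell (−1.75), and Ckm (−0.28) and Myog (−0.83) did not pass. Calls were kept in fewer than 12 of those fits for some genes: 3 for Pmel and Acta1, 4 for Dct.

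Of the 20 macrophage and neutrophil genes measured, 12 rose, 0 fell and 8 did not pass, against 14 higher and 1 lower in the 11 libraries (12-library median 1.13). Both fits called a larger share of them higher than of all genes (21.1% and 29.0%). The complement gene C1qa had 11.0 to 40.1 CPM (median 15.6) in vehicle, 69.1, 72.5 and 66.5 CPM in WT and 83.5 and 66.3 CPM in Runx2+/- with MS-275 and 10.4 CPM in replicate 3, and Mrc1 (2.07), Adgre1 (1.86) and Tyrobp (1.82) rose, while the neutrophil genes S100a8 (0.26), S100a9 (−0.19), Ngp (−1.02) and Camp (−0.85) did not pass. Of the 16 meninges and dura genes measured, 8 rose, 1 fell and 7 did not pass, against 10 higher and 1 lower in the 11 libraries. Both shares that rose are above those of all genes (21.1% and 29.0%). Only in 3 of the 16 did the 5 other MS-275 libraries lie above all vehicle libraries, near the 20.3% of all genes. The called ones include the proteoglycans Dcn (2.69, SE 0.52, edgeR adjusted p = 0.00982) and Lum (2.92) and Ogn (2.58), which osteogenic mesenchyme also expresses, and Ptgds (2.30). Aldh1a2, of the same list, did not pass (0.37, or −0.35 under scaling by library size alone). Of the 18 endothelial genes measured, 4 rose, 1 fell and 13 did not pass, against 9 higher and 1 lower in the 11 libraries. Pecam1 (1.49) and Emcn (2.17) rose with 12 libraries, Prox1, of lymphatic and lens cells, fell (−1.83), and Kdr (0.16) and Cdh5 (0.68) did not pass. With 12 libraries the share of the endothelial list that rose is near the 21.1% of all genes, and with 11 it is above 29.0%. The list's median of 0.34 became −0.31 under scaling by library size alone. Erythroid genes split: Slc4a1, the anion exchanger of red cells, fell from 28.8 CPM (12.2 to 48.0) in vehicle to 9.21 CPM (4.23 to 10.9) with MS-275, the spectrin gene Sptb fell (−2.22), and the globin Hbb-bs rose (1.70), 1 higher and 5 lower of 17 in all, against 5 and 6 in the 11 libraries. With 12 libraries the erythroid share that rose is below the 21.1% of all genes and the share that fell above the 14.4%. With 11 libraries both erythroid shares are near those of all genes (29.0% higher and 34.4% lower). Of the 14 adipocyte genes measured, 0 rose, 2 fell and 12 did not pass, against 0 higher and 9 lower in the 11 libraries, with medians of −0.55 and −1.84. The adipocyte share that fell is near the 14.4% of all genes with 12 libraries and above the 34.4% with 11. The sign of the 12-library median changed with Xist as a covariate (0.83) and with single libraries. It was 0.55, 0.56 and 0.58 when WT MS-275 replicate 1, 2 or 3 was left out and 0.37 without WT vehicle replicate 2. How far the makeup of the dissected tissue takes part in the bone results was not tested. The 5 MS-275 libraries with the high bone matrix genes were also the 5 with the low epidermal sums. The number of those 12 fits that kept the call was 3 for Hbb-bs, 4 for C1qa and Ptgds, 5 for Tyrobp.

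**Figure D4:**
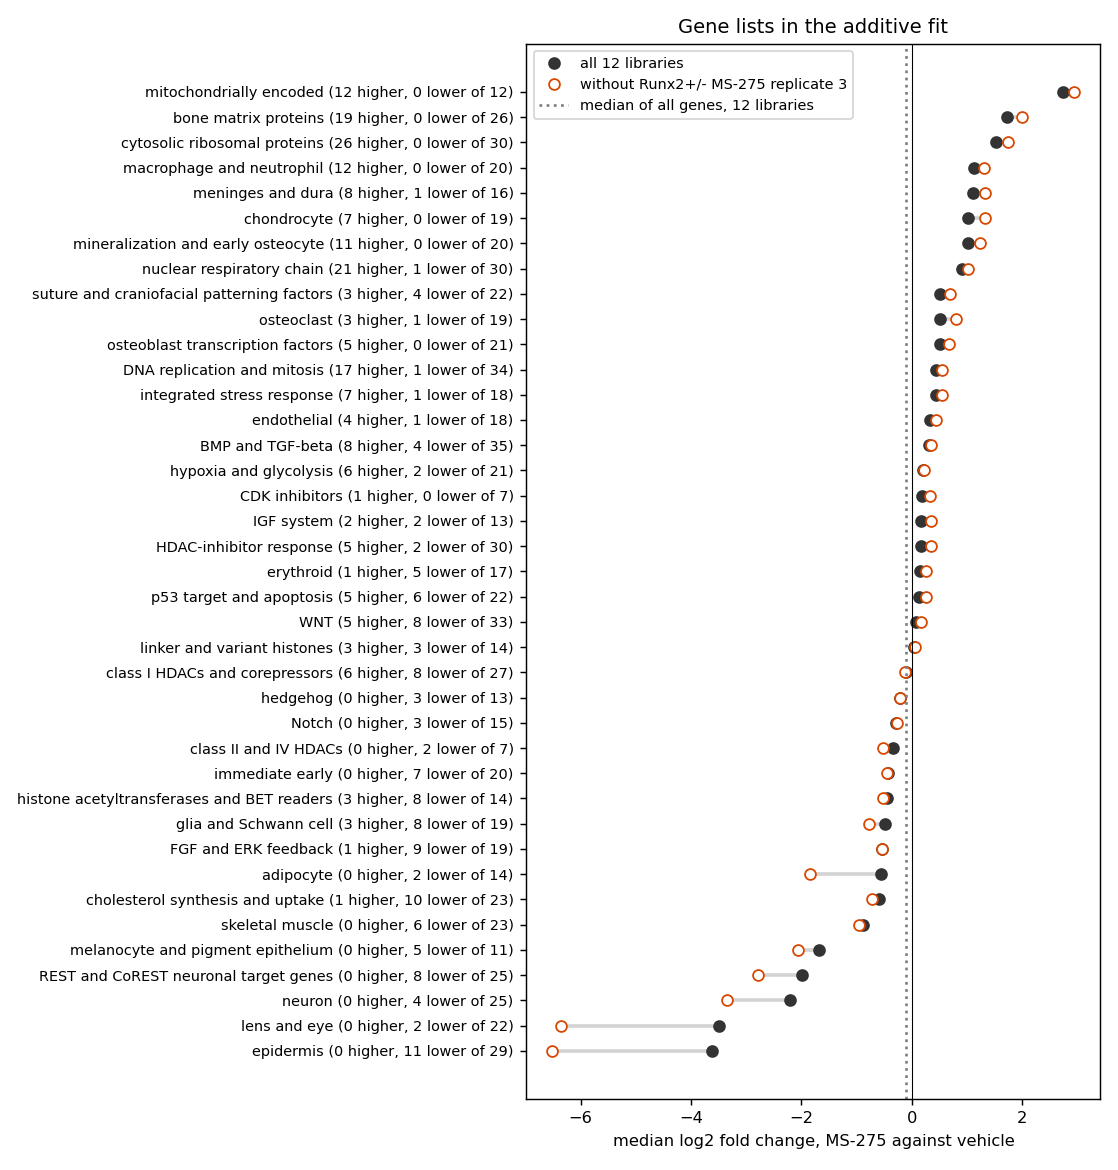
Median log2 fold change, MS-275 against vehicle, of the 39 gene lists with all 12 libraries (filled) and without replicate 3 of Runx2+/- MS-275 (open), with the number of genes that rose and fell in the 12-library fit and a dotted line at the median of all genes (−0.10). Mitochondrially encoded genes (2.75) and bone matrix genes (1.74) lie highest, and the epidermis and lens lists lie lowest in both.

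The 2 genotypes were compared by the drug difference within each. With all 12 libraries and 4 group means, 1738 genes rose and 1676 fell in WT, and 0 rose and 0 fell in Runx2+/- by edgeR (3782 genes there had an unadjusted p under 0.05, smallest adjusted p 0.181). Without replicate 3 of Runx2+/- MS-275 the counts were 4040 and 4440 in WT and 3367 and 2588 in Runx2+/-, where 2 MS-275 libraries remain and are taken to vary like those of the other groups. The WT libraries were the same in both fits. The common coefficient of variation between libraries, shared by all groups, went from 0.442 to 0.355. The interaction, by how much the drug difference of Runx2+/- exceeds that of WT, was called for no gene in either fit (953 and 509 genes at an unadjusted p under 0.05 by edgeR, smallest adjusted p 0.873 and 1.00), which does not show that the genotypes respond alike.

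In the 11 libraries the drug difference of Runx2 was 1.30 (SE 0.24) in WT and 0.77 (SE 0.27) in Runx2+/-, an interaction of −0.53 (SE 0.36, edgeR adjusted p = 1.00). For Sp7 the values were 2.00 (SE 0.41) and 0.92 (SE 0.44), with an interaction of −1.08 (SE 0.60, edgeR adjusted p = 1.00). For Spp1 they were 4.99 (SE 0.68) and 4.92 (SE 0.70), and for Bglap 5.25 (SE 0.51) and 4.55 (SE 0.51). Mepe stood the other way, at 3.22 (SE 0.68) in WT and 5.47 (SE 0.76) in Runx2+/- (interaction 2.25, SE 0.97, edgeR adjusted p = 1.00). For mt-Co1 the values were 2.82 (SE 0.49) and 3.06 (SE 0.52) and for Slc7a5 −1.82 (SE 0.21) and −1.90 (SE 0.25). The medians of the bone matrix list were 2.25 in WT and 1.71 in Runx2+/-, those of the osteoblast transcription factors 0.69 and 0.37, and those of the osteoclast list 1.08 and 0.07. For skeletal muscle they were −1.88 and 0.18. For these 4 lists no test of the difference between genotypes was run.

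**Figure D5:**
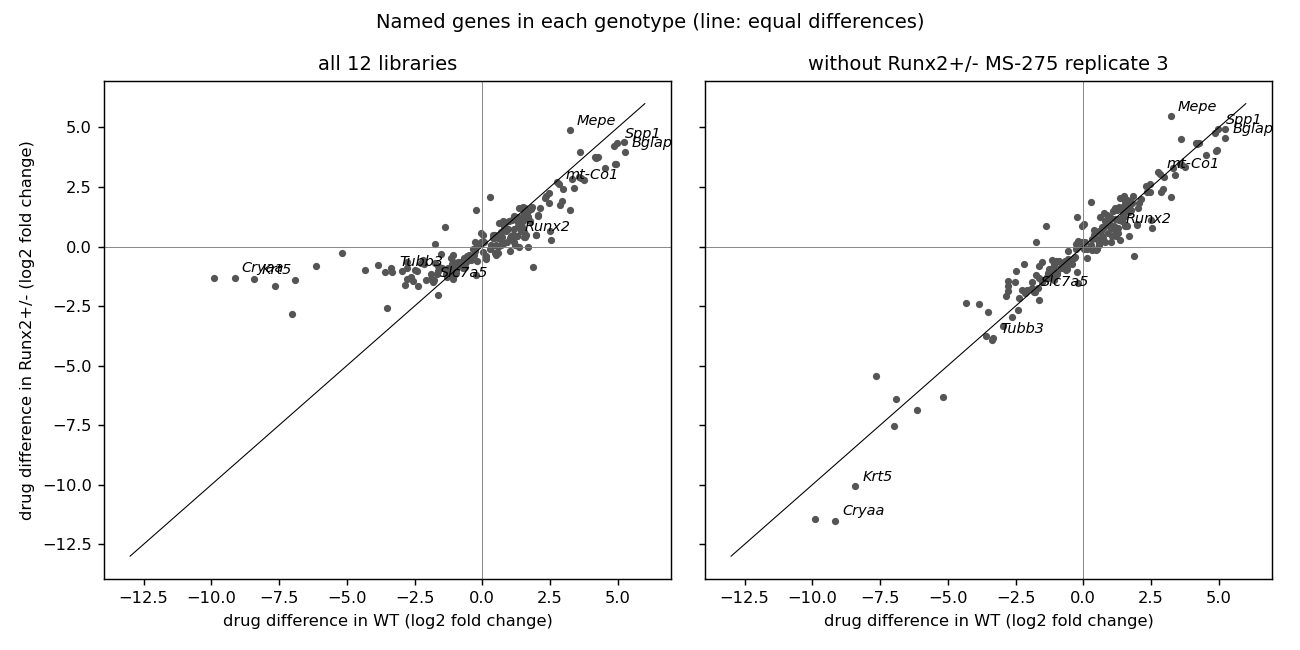
Drug difference (log2 fold change, MS-275 against vehicle) in WT against that in Runx2+/- for 200 of the 210 named genes, leaving out those with no count in a group, with all 12 libraries (left) and without replicate 3 of Runx2+/- MS-275 (right), with a line of equal differences. Krt5 lies far off the line on the left and closer to it on the right, Runx2 lies below the line on both sides, and mt-Co1 and Slc7a5 lie near it.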

How the data were processed

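Total RNA of 12 calvaria libraries was prepared with the TruSeq Stranded Total RNA kit, per the labels' protocols. The files the authors deposited hold read counts per mouse Ensembl gene, 39179 identifiers each, of which 1486 have no symbol (0.184% of counts). Per the submitters' processing notes the tools were Trimmomatic, Bowtie2, SAMtools and HTSeq, and the notes name the human build GRCh38.p7 although the identifiers are those of mouse. Versions and the strand setting of the counting are not given in the sources used here, so reads of antisense, overlapping or near-identical genes may be misassigned. The 5 summary entries of each file were kept out of library sizes and tests.

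Genes were kept by the low-count filter of edgeR 4.0.16 on the 4 groups, scaled by TMM and tested with its robust quasi-likelihood test for treatment with genotype as a covariate (R 4.3.3, Benjamini-Hochberg, threshold 0.05), with 12 and with 11 libraries. On simulated data the 12-library fit recovered 25% of 100 genes changed by a log2 fold of 1 and 90% of 100 changed by 2, and the 11-library fit 55% and 95%. The simulation changed far fewer genes than were called here and held no library that stood apart. These rates therefore do not describe the power of the reported fits. Named genes were the list anchors and the listed gene of smallest p in each direction, the 12 higher and 12 lower of smallest p, the 10 and 10 of largest fold in the 11-library fit that did not overlap and reached a mean of 10 CPM, and the 10 and 10 of smallest p with no overlap between 6 and 6. Other list members were named as examples after their values were seen, and the members and lists were chosen with earlier results of these data known. Alternatives used DESeq2 1.42.0, limma 3.58.1, other scalings, filters and covariates, and left out each library. Shares were compared by exact permutation of treatment within genotype (400 regroupings with all 12 libraries, fewer where libraries were left out). Results of some list members are not reported here.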

Additional observations from a re-analysis of the deposited data

Results flagged for a closer look

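In 116 groups of 6 libraries, each arm for a named measure, 31 held a library whose gap to its nearest neighbour was above 0.625 of the whole range, Dixon's 95% critical value. Chance flags about 1 in 20 such groups, and 29 of the 31 concerned replicate 3 of Runx2+/- MS-275. The largest-fold genes were chosen in the fit without that library, so its distance from the others in those genes partly follows from the choice.

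Replicate 3 of Runx2+/- MS-275 stood apart in its share of uniquely aligned reads in no gene (22.2%) and in its score on the first component (−106). It was the low library of the MS-275 arm for Lgals2 (0.392 CPM), Mlip (14.8 CPM) and Dcaf4 (32.3 CPM), among the genes of smallest p. It was also the low one for Bglap2 (1.13 CPM), Spp1 (134 CPM), Bglap (2.09 CPM), Lipc (0.958 CPM), Omd (13.1 CPM), Ibsp (375 CPM), Ifitm5 (8.92 CPM) and Timp1 (8.75 CPM). It was the high one for Casp14 (28.3 CPM), Ahsg (5.27 CPM), Lce1c (8.18 CPM), Lce1m (22.0 CPM), Csta1 (19.8 CPM), Hrnr (609 CPM), Klk7 (33.1 CPM), Them5 (24.2 CPM), Kprp (17.6 CPM) and Il1f5 (19.9 CPM). Its summed levels were high for the epidermis (2869 CPM), lens and eye (1062 CPM) and adipocyte lists (585 CPM). They were low for the macrophage and neutrophil (297 CPM), endothelial (404 CPM) and meninges and dura lists (1579.5 CPM). In the vehicle arm replicate 3 of Runx2+/- was the low library for Dcaf4 (21.9 CPM) and Hs6st1 (36.6 CPM).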

How the results depend on the processing

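With all 12 libraries, 3799 genes rose and 2585 fell. With Xist as a covariate these counts were 1880 and 1020, with limma-voom and sample quality weights 6362 and 7266, and with scaling by library size alone 851 and 6602. DESeq2 called 4052 genes lower, and leaving out the 4 libraries numbered 3 gave 6672 lower. Leaving out 1 library at a time gave 2258 to 5278 genes higher and 1162 to 6273 lower, the highest of both without replicate 3 of Runx2+/- MS-275, which had a quality weight of 0.106. In the 11-library fit the counts were 1521 and 12149 under library size alone, and 4474 to 5331 higher and 5538 to 6713 lower when a further library was left out. Without that replicate, chosen as an alternative for the within-genotype fits after the data were seen, 4040 genes rose and 4440 fell in WT and 3367 and 2588 in Runx2+/-. The difference in the mitochondrial share was 12.2 percentage points without the 4 libraries numbered 3 (p = 0.0556, exact permutation, the smallest that design can give). The difference in reads in no gene was −7.83 to −4.44 percentage points when 1 library was left out. The causes of these changes were not tested.

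Named genes that were called in the reported fit or in the alternative turned sign only under scaling by library size alone, among the alternatives run. With 12 libraries their values there were Hdac2 −0.16, Hdac3 −0.54, Sin3b −0.060, Fgfr3 −0.19, Hey1 −0.44, Sdha −0.21, Mki67 −0.27, Bax −0.33, Atf4 −0.42 and Ddit3 −0.58. With 11 libraries the values were Dpp7 −0.023, Hdac2 −0.24, Hdac3 −0.73, Sin3b −0.13, H1f0 −0.20, Cdkn1a −0.63, Cdkn1c −0.058, Dlx5 −0.60, Tcirg1 −0.032, Fgfr2 −0.23, Dusp6 −0.84, Fgfr3 −0.29, Bmp2 −0.038, Hey1 −0.42, Igfbp5 −0.14, Sdha −0.29, Atp5b −0.43, Mki67 −0.34, Bax −0.38, Atf4 −0.45, Ddit3 −0.78 and Fos −0.81. Of 5243 other values of the 210 named genes with 12 libraries, 4568 kept direction and side of the threshold. With 11 libraries 4743 of 5032 did. A further 70 and 60 values turned sign with no call on either side, among them those of Sox9, Nfatc1 and Dusp6. Scaling by library size alone ended the 12-library calls of Dpp7, Xrcc6, Hdac1, Hdac8, Sat1, Hist1h1c, Cdkn3, Runx2, Dlx6, Tnfsf11, Tcirg1, Alx4, Bmp4, Igf1, Igfbp7, Hbb-bs, Cd68, C1qa, Ptgds, Ndufs1, Rpl3, Rps6, Top2a, Ldha and Eno1. With limma-voom those of Mepe, Cdkn3, Bmp4, Gja3 and Hbb-bs were lost. Replicate numbers are shared between groups in the labels, but same-numbered libraries did not deviate together in every pair of groups. A replicate block gave 3148 genes higher and 1730 lower with 12 libraries, and 5609 and 6331 with 11. Genes whose 12-library calls were lost with Xist as a covariate, Runx2 apart, or with a replicate block are not listed here.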
